A study of Mus musculus with 388 samples.

Results

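The cell cycle genes of sorted mouse bone marrow stroma were followed cell by cell: 36 genes, taken by symbol from the 25000 genes of the count table. By role they were 15 mitotic genes, 10 genes of DNA replication and nucleotide supply, the centriole and centromere genes Cenpj and Cenpl, the 2 E cyclins, the 3 D cyclins and 4 inhibitors of the cyclin-dependent kinases (CDKs). All 36 had a row in the table and a count in at least 1 cell.

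The cells came from 2-month-old KitMerCreMer; R26tdTomato mice on a C57BL/6 background, in which Cre recombinase is produced where Kit is expressed, is switched on by tamoxifen and turns on the red fluorescent protein tdTomato. Every animal had this genotype, and tamoxifen was given at E12.5 and E14.5, days of embryonic life. Adult cells were sorted for PDGFRα, a surface receptor of mesenchymal cells, and against CD45, Ter119 and CD31, the usual surface marks of leukocytes, erythroid cells and endothelium. Of the 388 cells, 187 were Tomato+ and 201 were Tomato-. A Tomato+ cell is one whose labelled ancestor expressed Kit at the time of tamoxifen, and Tomato- cells can include progeny that escaped recombination. The titles give 2 orders: order 1 with sets N2, P1, P2 and P3, and order 2 with sets N1, N2, P1 and P2, where P sets are Tomato+ and N sets Tomato-. The labels name no animal, so each group counts as 1 sample, no test between groups was made, and every interval covers counting error only.

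A cell that divides passes through a replication phase, in which the MCM helicase, the sliding clamp PCNA and the enzymes that make deoxynucleotides are produced, and then through mitosis, for which the mitotic cyclins, the kinases CDK1, PLK1, AURKA and AURKB and the ubiquitin ligase cofactors CDC20 and UBE2C are needed. D cyclins answer growth signals and open the path to replication through the E cyclins, while the inhibitors Cdkn1a, Cdkn1b, Cdkn1c and Cdkn2c hold CDKs in check. In adult marrow, Lepr+ reticular stroma is known as a largely resting population that makes CXCL12 and stem cell factor, whereas precursors of granulocytes and B cells divide often.

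After removal of 2 cells with under 1000 genes or under 10000 counts, 386 cells remained, 185 Tomato+ and 201 Tomato-. They held a median of 679648 counts (18032 to 3833477) and 4421 genes with a count. A gene is called carried by a cell at 5 or more counts. Cells were marked by their counts: 12 blood-marked cells carried Ptprc, which encodes CD45, and 23 endothelial-marked cells carried Pecam1, which encodes CD31, without Ptprc. Of the rest, 310 were Lepr-high, with at least 500 CPM of Lepr (counts per 1000000 counts of the cell), and 41 were left as other, 38 of them in order 1. The endothelial mark did not set stroma apart, as 19 of those 23 cells also had Lepr at 500 CPM or more. Lepr-high cells carried a median of 14 of 15 stromal markers and 0 of 10 leukocyte markers. All 12 blood-marked cells were Tomato- cells of order 2, 2 in set N1 and 10 in set N2. Counts of abundant blood transcripts also turned up outside these cells: S100a8, a granulocyte gene, was carried by 105 of the 159 Lepr-high cells of order 2, at a median of 33.02 CPM. A few counts of a gene in a cell are therefore read with care. Ptprc was carried by 0 of the same 159 cells by definition, since carriers are blood-marked. Under that limit, 1 Tomato+ and 18 Tomato- cells among them had some Ptprc count.

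Promoter sequence describes the members apart from any count, and 6 windows of 150 bases before the RefSeq start (GRCm38.p6) are shown as examples. The 5 mitotic windows were chosen because they hold TTTGAA, as 6 of the 13 mitotic windows do, and Mcm6 for its E2F forms. RefSeq promoters of 300 bases matched 29 of the 36 members. Capitals mark TTTGAA, the core of the cell cycle genes homology region through which mitotic genes are repressed in resting cells, CCAAT, which NF-Y binds, and 4 core forms of the E2F site, on either strand, so that TTCAAA and ATTGG are the reversed forms. The E2F forms were TTGGCGC together with its variant TTCCCGC, and likewise the form TTCGCGC with its variant TTGCCGC. The reversed E2F form GCGCCAA can share letters with CCAAT. Top2a, the topoisomerase that untangles chromosomes, lies downstream of chr11:99024190-99024339 on the minus strand, Cdk1, the kinase that drives entry into mitosis, of chr10:69352913-69353062 on the minus strand, and Cdc20, an activator of the anaphase-promoting complex, of chr4:118437344-118437493 on the minus strand. Ube2c, the ubiquitin-conjugating enzyme of that complex, follows chr2:164769779-164769928 on the plus strand, and Hmgb2, a chromatin protein, follows chr8:57511693-57511842 on the plus strand. Mcm6, a helicase subunit shown as the replication example, follows chr1:128359706-128359855 on the minus strand.
Top2a: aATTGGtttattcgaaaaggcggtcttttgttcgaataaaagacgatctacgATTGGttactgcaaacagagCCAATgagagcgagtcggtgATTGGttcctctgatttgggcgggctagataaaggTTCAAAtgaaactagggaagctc
Cdk1: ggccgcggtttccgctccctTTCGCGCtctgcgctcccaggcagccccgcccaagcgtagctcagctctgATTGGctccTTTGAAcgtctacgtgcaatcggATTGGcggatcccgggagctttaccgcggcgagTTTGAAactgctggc
Cdc20: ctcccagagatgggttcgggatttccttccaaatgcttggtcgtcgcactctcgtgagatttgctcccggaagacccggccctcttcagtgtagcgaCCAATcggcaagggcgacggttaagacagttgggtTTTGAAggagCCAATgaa
Ube2c: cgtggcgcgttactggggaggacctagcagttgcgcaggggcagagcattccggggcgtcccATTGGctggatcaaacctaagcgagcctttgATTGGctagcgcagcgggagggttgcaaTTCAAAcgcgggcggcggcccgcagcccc
Hmgb2: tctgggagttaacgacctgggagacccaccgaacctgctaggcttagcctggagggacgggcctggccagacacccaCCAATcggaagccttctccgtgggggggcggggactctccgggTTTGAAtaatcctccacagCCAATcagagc
Mcm6: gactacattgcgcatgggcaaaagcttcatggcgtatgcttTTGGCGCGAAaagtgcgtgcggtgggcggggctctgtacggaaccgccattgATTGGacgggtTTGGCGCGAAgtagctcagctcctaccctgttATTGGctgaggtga
In these windows the first base of TTTGAA lay at -23 in Top2a, -71 and -15 in Cdk1, -18 in Cdc20, -29 in Ube2c and -30 in Hmgb2, where base -1 is the last before the start. The Mcm6 window held none and had 2 places where TTGGCGC overlaps the reverse of TTCGCGC. Over the 300-base promoters, a gene was counted if any of its promoters held the letters. By this count, 10 of 13 mitotic members (76.9%) and 1 of 9 replication members (11.1%) held TTTGAA, beside 20.2% of the 27025 genes with a promoter. An E2F core form stood in 3 of 13 (23.1%) and 6 of 9 (66.7%), beside 10.9% of all these genes. CCAAT stood in 12 of 13 and 8 of 9, beside 41.1% of all. Of the 3 CDK inhibitors with a promoter, 0 held TTTGAA. These matches describe letters and not bound sites.

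The mitotic members were gathered in very few cells. Of the 386 cells, 46.9% carried 0 of the 15 mitotic members, 159 cells carried 1 and 33 carried 2, while 8 cells carried 11 to 15. Between these, 4 cells carried 3 members and 1 carried 5, and 0 carried 4 or 6 to 10. At a threshold of 5 members, 9 of 386 cells (2.33%, exact 95% interval 1.07 to 4.38%) were multi-mitotic. The plot of members per cell by mark shows the gap.

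**Figure D1:**
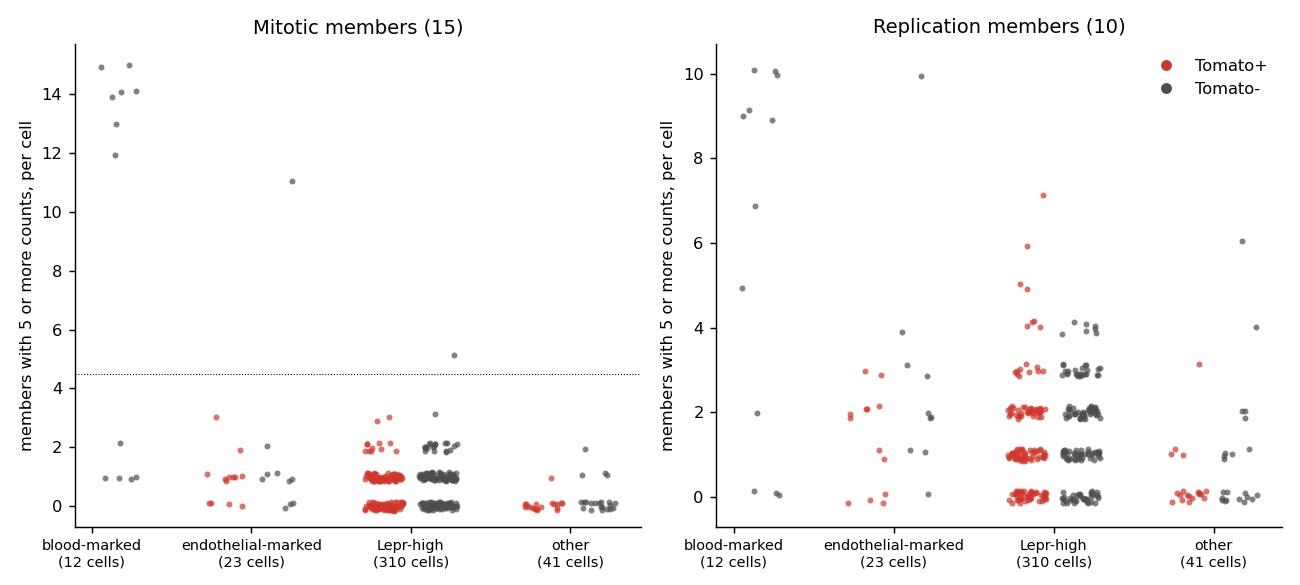
Number of mitotic members (of 15, left) and replication members (of 10, right) carried at 5 or more counts by each of 386 cells, by mark, with Tomato+ cells in red and Tomato- cells in grey. The dotted line on the left is the threshold of 5 members, and 8 cells lie at 11 to 15.

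Every multi-mitotic cell was Tomato- and belonged to order 2. Their share was 9 of 201 Tomato- cells (4.48%, 2.07 to 8.33%) and 0 of 185 Tomato+ cells, which allows a share of up to 1.62%. Within order 2 it was 9 of 141 Tomato- cells (6.38%, 2.96 to 11.8%) and 0 of 48 Tomato+ cells, which allows up to 6.25%, so a difference between the groups of that order was not detectable with this number of cells. Order 1 held 0 such cells among 197, which allows up to 1.52%. The sets were uneven: N2 of order 2 held 8 of 70 (11.4%, 5.07 to 21.3%) and N1 held 1 of 71 (1.41%, 0.0357 to 7.60%). Without N2 of order 2, 1 multi-mitotic cell was left. Set, order and group therefore cannot be told apart for this count.

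By mark, 7 of the 12 blood-marked cells were multi-mitotic (58.3%, 27.7 to 84.8%), against 1 of 23 endothelial-marked (4.35%), 1 of 310 Lepr-high (0.323%, 0.00817 to 1.78%) and 0 of 41 other cells, which allows up to 7.32%. The 8 cells with 11 to 15 members are named here by set and by the well code in the column name: F6 of N1, and A8, B12, D1, D3, E5, F4 and F8 of N2. They held 732480 to 1362544 counts each, around a median of 914584, more than the median of all cells. The mitotic genes chose them, so their mitotic values below are a description, while Lepr, the blood markers and the replication members were not used in the choice.

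Stromal transcripts were low in all 8 cells. Lepr stood at 22.8 CPM in A8 and F8, 30.3 in F6, 30.9 in D3, 32.3 in E5, 48.6 in D1, 81.9 in F4 and 178 in B12. The Lepr-high cells of order 2 ran from 777 to 12048 CPM around a median of 4520, so the groups did not overlap, and the 8 cells' median of 31.6 CPM was 0.699% of the Lepr-high median. Lepr-high cells were set apart by Lepr, but genes outside that choice had the same order. Cxcl12, the chemokine that holds blood stem cells in the marrow, had a median of 320 CPM against 53968 (0.592%). Adipoq, which encodes adiponectin, had 27.3 against 3379 CPM (0.807%), and Kitl, which encodes stem cell factor, 8.81 CPM, 0.590% of the Lepr-high median of 1493. The 15 stromal markers summed to 403 to 4749 CPM in the 8 cells, with 9 to 12 carried, and to a median of 80522 CPM (4929 to 123774) in the 309 Lepr-high cells with under 5 mitotic members. B12 had the highest sum of the 8, next to the lowest Lepr-high cell, with Cxcl12 at 2946 CPM.

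Leukocyte transcripts were high in the same cells. Ptprc read 591 CPM in F4, 536 in E5, 360 in A8, 253 in F8, 250 in F6, 90.2 in D3, 53.1 in B12 and 0 in D1. The leukocyte markers carried numbered 10 of 10 in F6, B12, D3, E5 and F8, 9 in A8, and 6 in D1 and F4, and their sum ran from 3231 to 10070 CPM. In the same 309 Lepr-high cells the sum had a median of 1.65 CPM, the highest was 3007 CPM, and at most 2 of the 10 were carried. D1 bore the endothelial mark through Pecam1 at 166 CPM, yet its other endothelial markers Cdh5 and Kdr were at 0. The plot of Lepr against Ptprc places each cell.

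**Figure D2:**
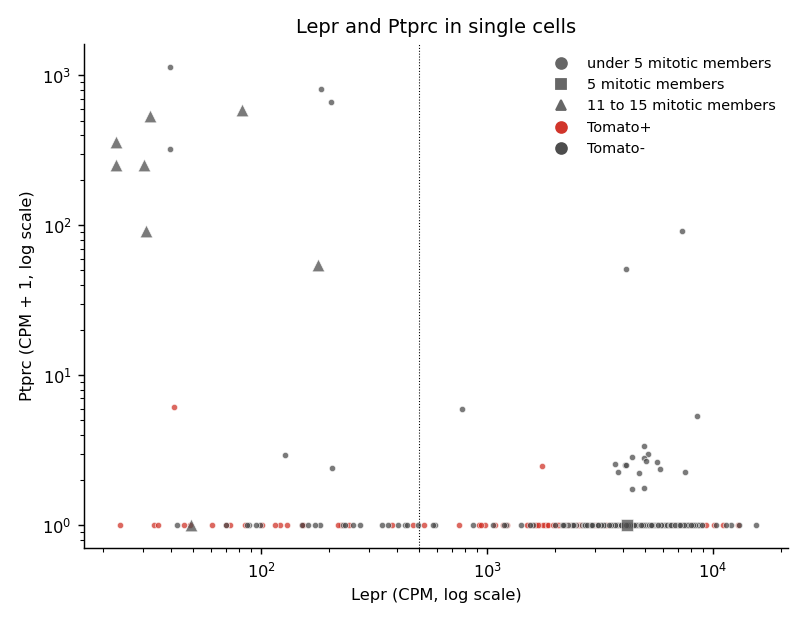
Lepr (CPM, log axis) against Ptprc (CPM + 1, log axis) in each of 386 cells, with triangles for the 8 cells that carry 11 to 15 mitotic members, a square for the cell with 5 and circles for the rest; the dotted line is 500 CPM of Lepr. All 8 triangles lie at or below 178 CPM of Lepr, and 7 of them carry Ptprc.

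Lineage markers separated the 8 cells into 3 kinds of profile. F6, B12, D3, E5 and F8 held S100a8 at 75691 to 114727 CPM, Ngp, a secondary granule protein of neutrophil precursors, at 52182 to 89388 CPM and Lyz2, the myeloid lysozyme, at 7234 to 46016 CPM. A8 held Mpo, the myeloperoxidase of primary granules, at 11873 CPM, Ctsg at 2132 CPM and the progenitor marker Cd34 at 1705 CPM, with S100a8 at 78.8 CPM. D1 and F4 held B lymphoid genes, 8 and 7 of 8, with Cd79a, a signalling chain of the B cell receptor, at 2077 and 1054 CPM and Dntt, which adds bases at immunoglobulin gene joints, at 6303 and 1040 CPM. In the 5 neutrophil-gene cells Cd79a was at 0, and in D1 and F4 Mpo was at 0. The 8 erythroid markers summed to at most 18.1 CPM in any of the 8 cells.

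Blood-marked cells were not all multi-mitotic. The other 5 carried 1 or 2 mitotic members, Hmgb2 in each (58.6 to 1235 CPM), and F9 of N2 also Mki67 at 176 CPM. A4, B9 and F9 of N2 held S100a8 at 118312 to 149202 CPM, A2 held Mpo at 19974 CPM and the mast cell protease Cpa3 at 9012 CPM, and A1 of N1 held Ptprc at 90.1 CPM together with Lepr at 7283 CPM. A1 was the one blood-marked cell with Lepr above 500 CPM. No doublet caller was run, and whether its well held more than 1 cell was not tested.

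The mitotic members themselves were abundant in the 8 cells and at the edge of detection elsewhere. Mki67, the proliferation antigen (ENSMUSG00000031004.8, GRCm38 chr7:135689784-135716361), read 116 CPM in A8, 404 in F6, 522 in D1, 612 in B12, 737 in F8, 743 in D3, 813 in E5 and 2597 in F4. Over the 310 Lepr-high cells its summed level was 0.218 CPM (Poisson 95% interval 0.161 to 0.288), with a per-cell median of 0, a highest value of 8.97 CPM and 1 carrier. Top2a (ENSMUSG00000020914.17, chr11:98992943-99024189) read 292 CPM in D1, 462 in A8, 689 in D3, 906 in E5, 1014 in B12, 1077 in F8, 1197 in F6 and 1225 in F4, against 0.529 CPM (0.438 to 0.633) in Lepr-high cells, highest 47.5. Neither gene's values overlapped between the 8 cells and the Lepr-high cells, but both genes helped choose the 8, so this is description only. How many of all genes part these cells in the same way was not counted.

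Of the 15, 8 genes were carried by all 8 cells: Mki67, Top2a, Cdk1, Ccna2, Birc5, Aurkb, Hmgb2 and Plk1. Ccnb2, Ube2c and Aurka were carried by 7, Ccnb1, Cdc20 and Bub1 by 6 and Cenpf by 5. Summed levels in the 8 cells were 277 CPM for Cdk1, 352 for Ccna2, the cyclin of late replication and early mitosis, 434 for Birc5, which encodes survivin, and 195 for Plk1, against 1.79, 0.298, 1.74 and 0.595 CPM in Lepr-high cells. The cyclin B1 gene Ccnb1 was uneven: 973 CPM in F8, 711 in F4, 439 in B12, 67.4 in A8, 41.1 in F6, 17.8 in D3 and 0 in D1 and E5. Ube2c had the same 2 cells on top, 1099 CPM in F4 and 824.2 in F8, and was 0 in D1. D1 had the least Ccnb2 of the 8, 1.10 CPM, although its Ccna2, 537 CPM, was the highest of the 8.

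Hmgb2 was the most abundant mitotic member by length as well, at 1264 CPM per kb of exon in the 8 cells, followed by Ccnb2 at 153, Ube2c at 141 and Birc5 at 127, with Cenpf, the long kinetochore protein gene, lowest at 7.79. It (ENSMUSG00000054717.7, chr8:57511907-57515999) read 1220 CPM in A8, 3004 in E5, 3401 in F8, 3612 in D1, 4085 in D3, 4105 in F6, 5930 in B12 and 6333 in F4. In Lepr-high cells its summed level was 79.1 CPM, with a per-cell median of 12.1 and a highest value of 1648 CPM, which overlaps A8. Hmgb2 was carried by 158 of 310 Lepr-high cells (50.97%, 45.3 to 56.7%), more than any other mitotic member there.

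The 8 cells were 2.07% of the cells and held 2.93% of all counts. They held 99.2% of all Cenpf counts, 99.1% of Aurkb, 98.6% of Mki67 and of Ccnb1, 98.1% of Top2a, 97.4% of Ccna2, 92.9% of Ube2c and 91.9% of Plk1. For Birc5, Ccnb2, Cdk1 and Bub1 the share was 78.9 to 89.1%, for Hmgb2 57.8%, for Aurka 53.1% and for Cdc20 49.8%. Their median over the 15 mitotic members was 91.9%. Part of the Ube2c exons (22.8%) overlaps Tnnc2 and part of the Ccna2 exons (12.49%) overlaps Exosc9, and a pseudogene of Ccnb1 has its own row, so these counts are less certain.

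**Figure D3:**
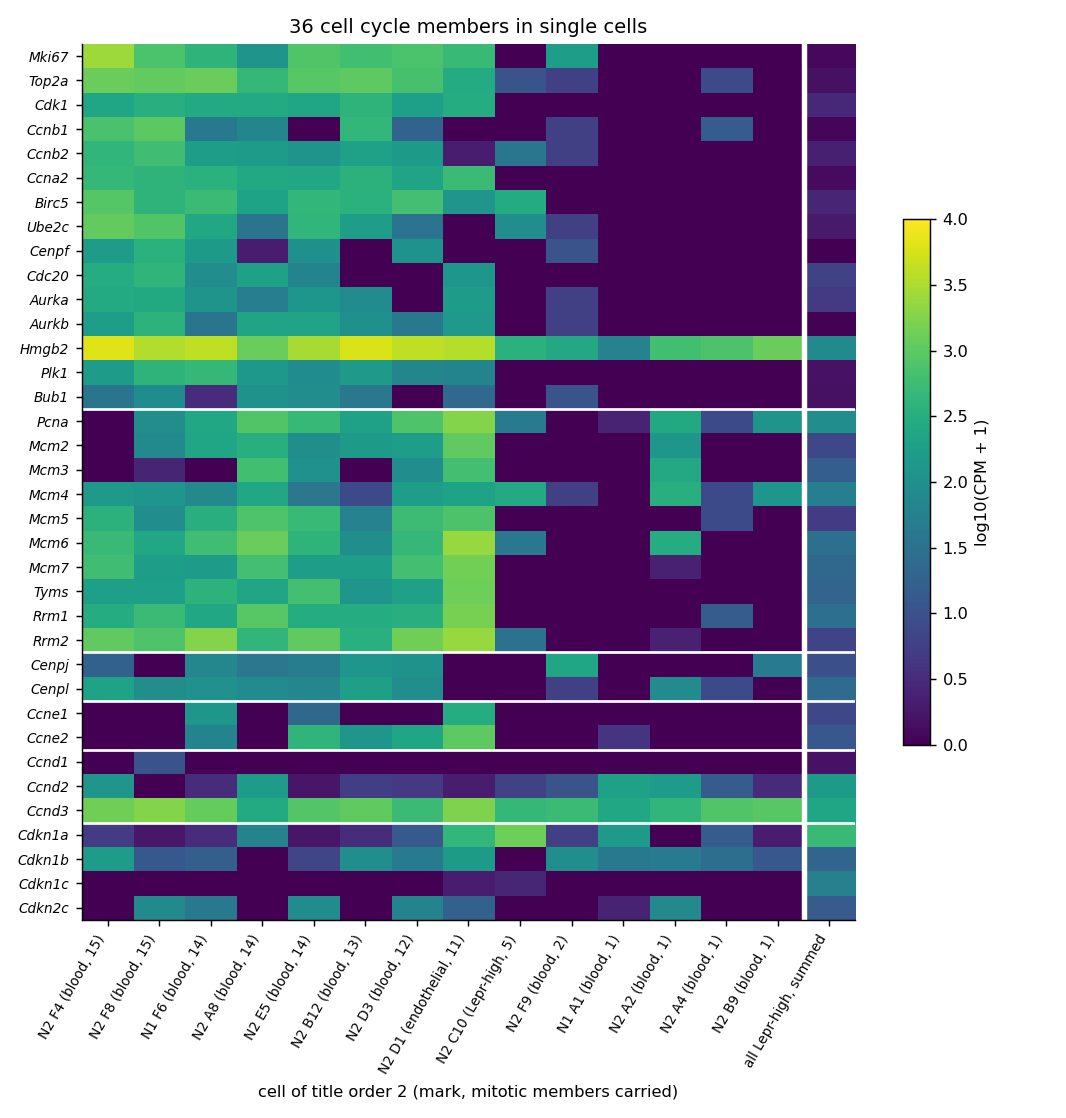
Level of the 36 members (rows, by role) in 14 cells of order 2 and in the sum of the Lepr-high cells (last column), as log10(CPM + 1). The 8 cells with 11 to 15 mitotic members are filled across the mitotic and replication members, while C10, F9, A1, A2, A4 and B9 show few mitotic members and the Lepr-high sum is filled mainly at Hmgb2, Pcna, Mcm4, the D cyclins Ccnd2 and Ccnd3, Cdkn1a and Cdkn1c.

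Mitotic counts in Lepr-high cells were few and scattered. Without Hmgb2, 263 of the 310 cells (84.8%) carried 0 of the other 14 mitotic members, 43 (13.9%) carried 1, 3 carried 2 and 1 carried 4. Ccnb2 had 12 carriers and Cdc20 10, and the other genes had 0 to 6, with Cenpf and Aurkb at 0, which allows a share of up to 0.968%. The highest single values were 984 CPM for Aurka, 560 for Cdc20, 291 for Birc5 and 253 for Cdk1. For Bub1, 93.6% of the Lepr-high counts and for Plk1 82.1% came from 1 cell each.

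C10 of N2 was the one Lepr-high cell past the threshold. It held 174 counts of Birc5 (291 CPM), 54 of Ube2c, 22 of Ccnb2, 6 of Top2a and 217 of Hmgb2, and 0 of Mki67, Cdk1 and Ccna2. Lepr stood at 4171 CPM, Kitl at 4228 CPM, the inhibitor Cdkn1a at 1305 CPM and all 10 leukocyte markers at 0, and the erythroid genes Hba-a1 and Hbb-bt at 3247 and 1140 CPM. It dropped below the threshold at 20 or more counts per gene, at 8 or more members, when each cell was thinned to 150000 counts, and when counts under 1% of the highest cell of its library pool were set to 0. Among the 4 cells with 3 members, A6 of N2 carried Ccnb2, Ube2c and Hmgb2, H6 of P1 carried Ccna2, Aurka and Hmgb2, and G4 of P2 carried Mki67, Ccnb2 and Hmgb2, all Lepr-high in order 2. The last, G8 of P2, was endothelial-marked and carried Top2a, Ube2c and Hmgb2. The highest number in a Tomato+ cell was thus 3.

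Replication members were also high in the 8 cells, and these genes had no part in choosing them. A8, D1, D3 and E5 carried 10 of the 10, F6, B12 and F8 carried 9 and F4 carried 7, against a median of 1 in Lepr-high cells. Rrm2, the regulated subunit of ribonucleotide reductase (ENSMUSG00000020649.11, chr12:24708241-24714146), read 344 CPM in B12, 428 in A8, 798 in F8, 1039 in E5, 1068 in F4, 1358 in D3, 1782 in F6 and 2411 in D1. In Lepr-high cells its summed level was 5.39 CPM (5.09 to 5.71), its highest value 205 CPM and its carriers 18 of 310. No Lepr-high cell thus reached the lowest of the 8. How many of all genes part the cells in this way was not counted. Mcm5, a helicase subunit, summed to 428 CPM in the 8 cells and 4.22 CPM in Lepr-high cells, where 7 cells carried it.

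Pcna and Mcm4 were different. Pcna (ENSMUSG00000027342.14, chr2:132249162-132253314) read 1838 CPM in D1, 817.6 in A8, 785 in D3, 471 in E5, 240 in F6, 193 in B12, 95.1 in F8 and 0 in F4, and its Lepr-high cells ran from 0 to 1166 CPM around a median of 11.9, so the groups overlapped. It was carried by 154 of 310 Lepr-high cells (49.7%, 43.98 to 55.4%), at a summed 94.3 CPM. Mcm4 (ENSMUSG00000022673.5, chr16:15623897-15637400) summed to 122 CPM in the 8 cells and 51.4 CPM in Lepr-high cells, 75 of which (24.2%) carried it. The remaining replication members had lower Lepr-high levels: Mcm6 28.3 CPM (39 carriers), Rrm1 27.4 (36), Mcm7 20.97 (43), Tyms, the thymidylate synthase gene, 19.1 (33), Mcm3 14.8 (15) and Mcm2 6.24 (11). Their levels in the 8 cells were 704, 546, 458, 417, 176 and 250 CPM. Pcna has processed pseudogenes that could take or give reads, and 12.6% of the Mcm7 exons overlap neighbouring genes and microRNAs.

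The 8 cells held 77.7% of all Mcm5 counts, 75.5% of Rrm2 and 53.6% of Mcm2, but 12.6% of Pcna and 6.90% of Mcm4, with a median of 38.7% over the 10 replication members. Among the 8, D1 had the highest Rrm2, Mcm6 (2385 CPM), Pcna, Mcm7 (1428), Rrm1 (1529), Tyms (1321) and Mcm2 (1040), the lowest Ccnb2 and no Ccnb1 or Ube2c count. F4 had 0 counts of Pcna, Mcm2 and Mcm3 but Rrm2 at 1068 CPM, Mcm7 at 586, Mcm6 at 494 and Mcm5 at 369, and the highest Mki67, Ube2c and Birc5 (868 CPM). Both belong to the pair with B lymphoid genes.

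Replication members also met in a few cells without mitotic ones. Outside the multi-mitotic cells, 6 cells carried 5 or more of the 10. The 4 that were Lepr-high were all Tomato+: A4 of P1 in order 1 carried 7 (Lepr 3215 CPM), G1 and C1 of the same set carried 6 and 5, and G12 of P2 in order 2 carried 5. In A4, Mcm3 read 471 CPM, Pcna 381, Mcm4 327, Mcm6 245 and Rrm1 189, with 0 of Rrm2, and its Hmgb2, 14.2 CPM, was the one mitotic member carried. The blood-marked A2 of N2 carried 5 with Hmgb2 alone of the mitotic members, and C11 of N2, an other cell with Lepr at 434 CPM, carried 6 with Hmgb2 and Aurka. Across all 6 cells, Mki67, Top2a, Cdk1 and Ccna2 were at 0.

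The centriole and centromere genes and the E cyclins were spread over more cells. Cenpj, a centriole assembly gene (ENSMUSG00000064128.8, chr14:56526761-56575425), summed to 48.7 CPM in the 8 cells, 6 of which carried it, and to 8.52 CPM in Lepr-high cells, with 14 carriers. Cenpl, a protein of the inner kinetochore (ENSMUSG00000026708.16, chr1:161070713-161086724), summed to 98.6 CPM (7 carriers) and 24.4 CPM (25 carriers), but 1 cell at 3392 CPM gave 37.03% of the Lepr-high counts. Ccne1 (ENSMUSG00000002068.16, chr7:38097984-38107534) was carried by 3 of the 8, D1 at 304 CPM, F6 at 132 and E5 at 21.3. Ccne2 (ENSMUSG00000028212.16, chr4:11191351-11204779) was carried by 5, led by D1 at 1003 CPM and E5 at 414, and A8, F4 and F8 had 0 of both E cyclins. In Lepr-high cells Ccne1 summed to 6.37 CPM with 14 carriers and Ccne2 to 11.01 CPM with 26. Of the Ccne2 exons, 17.4% overlap Ints8.

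Cdkn1a, Ccnd3 and Ccnd2 were the 3 members most widely carried by Lepr-high cells. Ccnd3 (ENSMUSG00000034165.16, chr17:47505051-47599691) was shared by both kinds of cell: 281 CPM in A8, 542 in D3, 849 in E5, 1043 in B12, 1145 in F6, 1373 in F4, 1703 in D1 and 1809 in F8, and 0 to 1768 CPM with a median of 178 in Lepr-high cells, 207 of which (66.8%, 61.2 to 72%) carried it. Ccnd2 (ENSMUSG00000000184.12, chr6:127125162-127152193) was carried by 179 Lepr-high cells (57.7%, 52.03 to 63.3%) at a summed 152 CPM and a median of 43.7. Among the 8, it stood at 155 CPM in A8 and 120 in F4 and at 0 to 4.63 CPM in the other 6. Ccnd1 (ENSMUSG00000070348.5, chr7:144929931-144939925) was nearly absent from both, at 0.555 CPM with 5 carriers of 310 and at 1.52 CPM with 1 carrier of 8. Its exons overlap those of another gene by 23.4%.

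The inhibitors Cdkn1a and Cdkn1c were lower in the sum of the 8 cells than in that of the Lepr-high cells. Cdkn1a, the inhibitor induced by p53 (ENSMUSG00000023067.14, chr17:29090976-29100727), was carried by 251 Lepr-high cells (80.97%, 76.1 to 85.2%) at a summed 490 CPM, a median of 217 and a highest value of 7897 CPM. It was also carried by 20 of 22 endothelial-marked cells outside the 8 (455 CPM), a group mostly at 500 CPM of Lepr or more. Of the 41 other cells, 30 carried it (643 CPM). Among the 8, D1 read 443 CPM, A8 60.1, D3 11.9 and the other 5 at most 4.10 CPM. Cdkn1c, an imprinted inhibitor (ENSMUSG00000037664.13, chr7:143458339-143461050), was carried by 138 Lepr-high cells (44.5%, 38.9 to 50.2%) at 55.2 CPM, and 1 count of it was seen in the 8 cells together, with 30.7% of its exons shared with another gene. The same endothelial-marked and other cells carried Cdkn1c in 9 of 22 and 5 of 41. In the 5 blood-marked cells outside the 8, Cdkn1a read 146 CPM in A1 of N1 and 0 to 13.6 CPM in A2, A4, B9 and F9 of N2. Cdkn1c was at 0 CPM in those 5 cells, so low levels of both inhibitors were not particular to the 8. The 8 cells held 0.371% of all Cdkn1a counts, 0.653% of Ccnd2 and 0.00749% of Cdkn1c. Per kb of exon, Cdkn1a led in Lepr-high cells at 138 CPM per kb, then Pcna at 39.3, Cdkn1c at 27.1, Hmgb2 at 26.3, Ccnd3 at 25.5 and Ccnd2 at 16.2.

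Cdkn1b (ENSMUSG00000003031.14, chr6:134920401-134925513), the inhibitor that keeps CDK2 silent in resting cells, and Cdkn2c, which blocks the CDK partners of D cyclins, were present on both sides. Cdkn1b was carried by 7 of the 8 cells (154 CPM in F4, 149 in D1, 90.1 in B12, 43.9 in D3, 15.2 in F6, 11.8 in F8, 5.87 in E5 and 0 in A8) and by 84 of 310 Lepr-high cells (27.1%). Cdkn2c was carried by 5 of the 8 and by 29 of 310 (9.35%). The levels of all 8 fell inside the Lepr-high range for both genes, whose highest values were 627 and 1537 CPM.

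**Figure D4:**
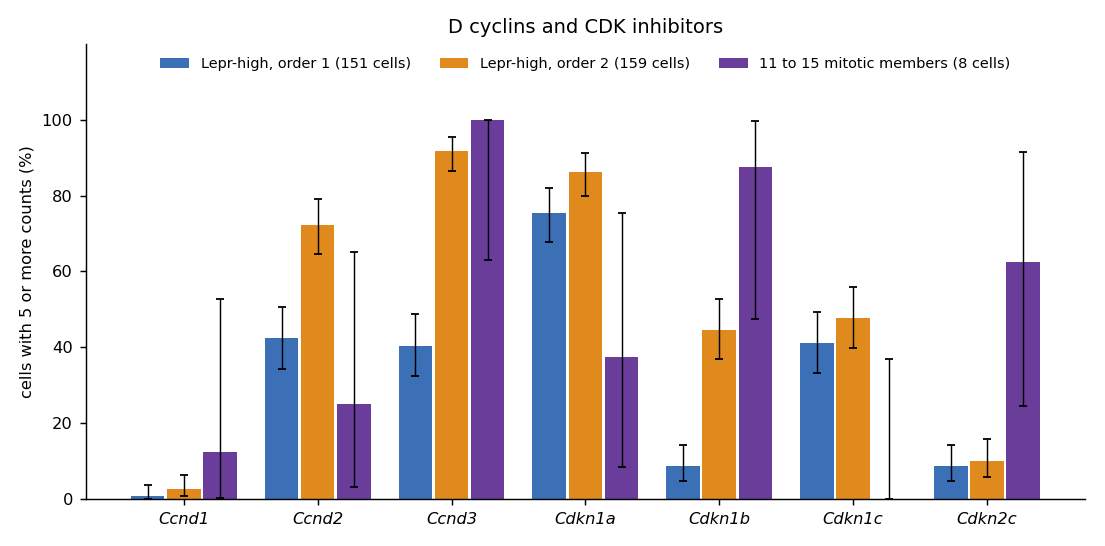
Percent of cells that carry each D cyclin and CDK inhibitor at 5 or more counts, in Lepr-high cells of order 1 (151) and order 2 (159) and in the 8 cells with 11 to 15 mitotic members; bars start at 0 and error bars are exact 95% intervals for counting error. Ccnd3 stands at 40.4% and 91.8% in Lepr-high cells of the orders and at 100% of the 8 cells, while Cdkn1c was carried by 0 of the 8.

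Lepr-high cells of the orders differed in some of these genes. Ccnd3 was carried by 40.4% of 151 cells in order 1 (32.5 to 48.7%) and by 91.8% of 159 cells in order 2 (86.4 to 95.6%), and by 37.7% and 88.96% once each cell was thinned to 150000 counts. Its summed level was 134.6, 118.7 and 129.2 CPM in the sets N2, P1 and P3 of order 1, and 329, 391, 330 and 269 CPM in N1, N2, P1 and P2 of order 2. How many of all genes differ between the orders in this way was not counted. Cdkn1b stood at 7.23, 6.53 and 0.590 CPM in the sets of order 1 and at 33.5, 39.4, 35.3 and 25.02 CPM in those of order 2, with 8.61% and 44.7% of cells (2.74% and 27.9% thinned). Ccne1 was carried by 0 of 151 cells and by 14 of 159 (8.81%, and 9.09% thinned). P2 of order 1 had no Lepr-high cell.

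Hmgb2 also differed by order, with 32.5% and 68.6% of Lepr-high cells (29.5% and 61.7% thinned) and 53.3 and 110 CPM, and Ccnd2 with 42.4% and 72.3% (32.2% and 70.1%). Setting counts under 1% of the highest cell of a pool to 0 left Hmgb2 at 32.5% and 54.7%. Levels of Cdkn1a hardly differed, 489 and 491 CPM, although its carriers went from 75.5% to 86.2%, and Pcna stood at 100.5 and 86.9 CPM with 37.7% and 61.01% of cells. Mcm3 was lower in order 2, 5.53 against 22.5 CPM, and it was carried by 3.14% and 6.62% of cells. Cenpl stood at 35.97 and 10.4 CPM with nearly equal carriers, 7.95% and 8.18%, and 45.9% of its order 1 counts came from 1 cell, without which order 1 stood at 19.6 CPM. The labels do not say what the orders stand for, each holds both Tomato groups, and no cause of these differences was tested.

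The design sets Tomato+ against Tomato- cells, and asks here whether cells with a Kit-expressing ancestor carry more or fewer cell cycle transcripts. A gene was called higher or lower by a filter and a limit on size. For the filter, the higher group's summed level, averaged over the orders, had to reach 20 CPM, with a count in at least 20% of its cells. The level in a single order could thus lie under 20 CPM. For the limit, the log2 ratio of (CPM + 1) had to keep its sign and be beyond 1.5-fold in both orders. By this rule of size 8 members were lower in Tomato+ cells and 0 were higher: Top2a, Pcna, Mcm7, Tyms, Rrm2, Cenpj, Cenpl and Ccne2. Over all 6681 genes past the same filter, 4.7% were called lower and 3.38% higher. The filter left 17 of the 36 members. Of the called members, Top2a, Mcm7, Rrm2, Cenpj, Cenpl and Ccne2 averaged under 20 CPM in Tomato+ cells and so passed through Tomato- cells alone. The filter itself thus favoured a difference in these genes. For most of the 8 called members, a large share of the counts came from few cells.

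Top2a summed to 0.0808 CPM in Tomato+ and 1.25 CPM in Tomato- cells of order 1, and to 0.579 and 73.6 CPM in order 2, with a median of 0 per cell in each group, log2 ratios of -1.06 and -5.56 and values that overlapped. All 41 Tomato- counts of order 1 came from the Lepr-high cell E9 of N2, and 99.1% of those of order 2 came from the 8 cells. Rrm2 summed to 1.97 and 50.03 CPM in order 1 (-4.10) and to 8.91 and 104 CPM in order 2 (-3.40). F6 of N2 in order 1, an other cell with Lepr at 87.95 CPM and 0 mitotic members, gave 90.2% of the order 1 Tomato- counts, and the 8 cells gave 92.3% of those of order 2. Tyms had ratios of -1.12 and -1.62, from 27.3 against 60.4 CPM and 14.2 against 45.4 CPM, with 92.7% of its order 1 Tomato- counts in that same F6 cell and 77.7% of its order 2 counts in the 8 cells.

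Pcna summed to 83.5 and 310 CPM in order 1 (-1.88) and to 73.1 and 129 CPM in order 2 (-0.81), with 35.6% of the order 2 Tomato- counts in the 8 cells, and 43.5% of its order 1 Tomato- counts came from B3 of N2, an other cell at 23116 CPM. Mcm7 had 21.7 and 36.5 CPM (-0.73), then 7.79 and 55.1 CPM (-2.68), with 70.5% of the last sum in the 8 cells. Ccne2 had 7.02 and 20.5 CPM (-1.43), then 10.4 and 33.6 CPM (-1.61), with 58.9% of the last in the 8 cells. These 3 therefore rested on the 8 cells in order 2 to different degrees.

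Cenpl and Cenpj were also called. Cenpl summed to 16.7 and 96.5 CPM in order 1 (-2.46) and to 3.93 and 19.3 CPM in order 2 (-2.04), with 43.4% of the order 2 Tomato- counts in the 8 cells and 63.98% of those of order 1 in E5 of N2. Cenpj summed to 0.727 CPM (0.577 to 0.903) and 27.2 CPM (25.5 to 29.1) in order 1 and to 0.0965 CPM (0.0199 to 0.282) and 16.5 CPM (15.7 to 17.3) in order 2, ratios of -4.03 and -4.00. It was carried by 1 of 137 Tomato+ and 3 of 60 Tomato- cells in order 1, and by 0 of 48 and 19 of 141 (13.5%, 8.31 to 20.2%) in order 2, where 3 counts in 1 cell made up the Tomato+ sum. The 0 of 48 allows a share of up to 6.25%, and 24.98% of the Tomato- counts of order 2 came from the 8 cells.

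The remaining 9 members past the filter were not called. Hmgb2 had ratios of -0.47 and -1.68, Mcm6 of 1.56 and -1.99, Ccnd3 of 0.20 and -0.54, Cdkn1a of 0.18 and -0.10 and Cdkn1c of -0.40 and 0.86. Counting genes with 3 or fewer counts in both groups as unmeasured and setting a 0 to 3 counts, the members had a median ratio of -0.16 in order 1 (18 of 31 below 0) and of -1.83 in order 2 (33 of 36 below 0), beside 0.17 and -0.10 over all genes. Over all genes, 5912 of 13672 were below 0 in order 1 and 8435 of 14683 in order 2. In order 2, 15 of 15 mitotic members were below 0, with a median of -3.70, and 10 of 10 replication members, with a median of -1.41. The 8 cells chosen by the mitotic members are all Tomato- cells of order 2, so the mitotic count is description only. In Lepr-high cells of order 2, 8 of 14 mitotic members (median -0.13) and 4 of 10 replication members (median 0.35) were below 0. Over all cells of order 1, the mitotic median was 0.15, over 10 of the 15.

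**Figure D5:**
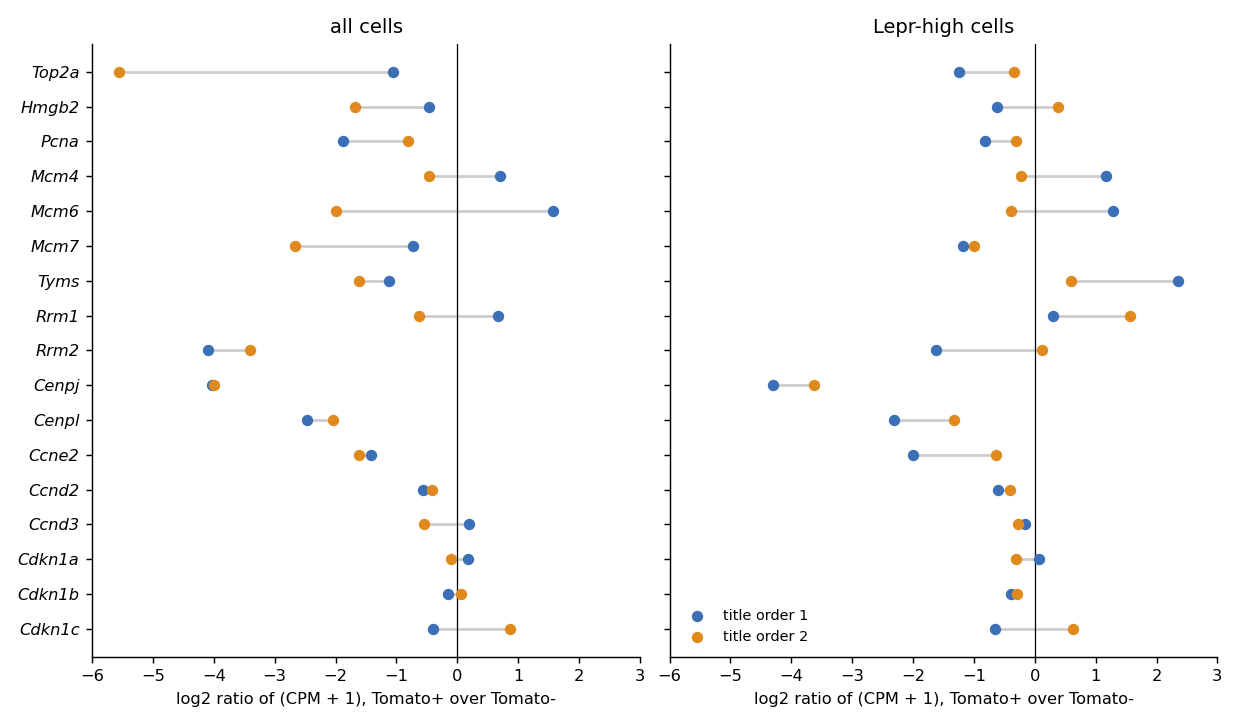
Log2 ratio of (CPM + 1), Tomato+ over Tomato-, in order 1 (blue) and order 2 (orange) for the 17 members past the filter, over all cells (left) and over Lepr-high cells (right). Top2a lies at -5.56 in order 2 over all cells, Rrm2 lies at -3.40 in order 2 over all cells and at 0.12 over Lepr-high cells, and Tyms lies above 0 in both orders over Lepr-high cells.

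Blood-marked cells were unevenly placed: all 12 were Tomato- cells of order 2, and order 1 had 0. The 8 called members were lower in order 1 too, but the rule requires this of any call. In the blood-marked cells, leukocyte markers summed to 311 to 19591 CPM per cell, against the Lepr-high median of 1.65 CPM. The part of these cells in the ratios of order 2 was tested only by leaving cells out. Without the 12 blood-marked cells, 5 members were called lower (Mcm7, Tyms, Rrm2, Cenpl and Ccne2). That setting kept the endothelial-marked D1, 1 of the 8 cells. Among Tomato- cells of order 2, D1 had the most counts of Mcm7, Tyms, Rrm2 and Ccne2. Without blood-marked and endothelial-marked cells, 2 members were called lower. Without the multi-mitotic cells, 2 were (Mcm7 and Cenpl) and Rrm1 was higher (0.67 and 1.21, against 0.67 and -0.63 with all cells), and the mean ratio over the orders went from -3.31 to -0.57 for Top2a, from -3.75 to -2.03 for Rrm2 and from -1.37 to -0.40 for Tyms. In order 2 alone, Rrm2 then stood at 0.04 and Tyms at 0.32. Cenpj dropped out of the calls through the filter on level, with ratios of -4.03 and -3.65 without the blood-marked cells. All of these settings were chosen as alternatives around the same cells, so they are not separate evidence.

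Within Lepr-high cells, 13 members passed the filter, 2 were lower in Tomato+ cells and 1 was higher, beside 3.82% lower and 3.27% higher of 6550 genes. Mcm7 summed to 19.9 and 46.2 CPM in order 1 and to 8.55 and 18.1 CPM in order 2, ratios of -1.17 and -1.003. Cenpl had 19.1 and 99.3 CPM, then 4.403 and 12.6 CPM, ratios of -2.32 and -1.33, and 1 cell gave 79.02% of its order 1 Tomato- counts. Cenpj did not pass the filter there, with 0.794 CPM in Tomato+ and 34.5 CPM in Tomato- cells of order 1 and 0.108 and 12.7 CPM in order 2, ratios of -4.31 and -3.63. Its carriers were 1 of 111 and 3 of 40 cells, then 0 of 42 and 10 of 117. Tyms was the higher member, with 30.6 against 5.18 CPM and 15.9 against 10.2 CPM, ratios of 2.36 and 0.59, the reverse of its direction over all cells. Per-cell values overlapped for the 3 called genes, with medians of 0. Without the cell with the most counts of each gene in each group and order, 1 member was lower (Mcm7) and 0 were higher. The members' median ratio was -0.21 in order 1 and -0.14 in order 2, beside 0.13 and -0.04 over all genes.

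Further genes of the mitotic and replication roles were counted in the same cells. Of 30 further mitotic genes, 29 were carried by 5 or more of the 8 cells and 24 had over 50% of their counts there, with a median of 86.7%. Nuf2, a kinetochore gene, had 99.7%, and Ckap2l and Pbk, a spindle gene and a mitotic kinase gene, 99.3% each. Smc4 and Cks2 were the most widely carried in Lepr-high cells, by 50 and 60 of 310. Of 20 further replication genes, 17 were carried by 5 or more of the 8, but 5 by all 8, where 7 of the 10 replication members were, with a median of 39.3% of counts there. They were carried by a median of 3.39% of Lepr-high cells, against 11.1% for the replication members. Slbp, which binds histone messenger RNA, was nevertheless carried by 252 of 310 Lepr-high cells. How many of all genes reach these limits in the 8 cells was not counted. Of these 50 genes, only 5 mitotic and 3 replication genes passed the filter over all cells. Mad2l1, a spindle checkpoint gene, was the one called lower in Tomato+ cells, with ratios of -1.05 and -2.06. Over all genes past the filter, 4.7% were called lower.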

How the data were processed

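Single cells were lysed, and polyadenylated RNA was copied to cDNA and the whole transcriptome was amplified for Illumina libraries, per the labels' protocols. The deposited table holds the authors' expected counts, which include fractions, for 388 cells and 25000 genes; per the file headers, columns of order 1 come from RSEM gene results. Build GRCm38 and the tools StringTie 1.3.3b, HTSeq 0.6.0 and HISAT are named in the submitters' processing notes; the role of each, and whether strand was counted, is not given in the sources here. No molecular identifiers are described, so counts are amplified reads.

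Values were rounded. Columns were matched by name to a group and set, never to a single title; 0 columns were left unused and 0 were duplicates. The members and all gene lists were chosen with earlier results of these data known. The rule for named genes was every member by role, with full values for those called by size and the 3 per role with the most counts. Counts were summed per group within each order and scaled to CPM, with a pseudocount of 1 CPM; besides the filter and the 1.5-fold limit in both orders, a call needed mean per-cell CPM to agree in sign. Shares have Clopper-Pearson and sums Poisson 95% intervals, which cover counting error only; a 0 allows up to 3 counts. With 1 sample per group no test was made. Thinning to 150000 counts left out 4 Tomato+ and 13 Tomato- cells. No doublet caller was run. Gene coordinates are from GENCODE on GRCm38 and promoters from RefSeq on GRCm38.p6. The scripts (Python 3.11.15, NumPy 2.4.6, pandas 2.3.3, SciPy 1.17.1, matplotlib 3.10.9) were tested on simulated data. Alternatives were other count and member thresholds, thinning, removal of counts low for their pool, other marks, pseudocounts and filters, and leaving out cells or sets.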

Additional observations from a re-analysis of the deposited data

How the results depend on the processing

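The number of multi-mitotic Tomato- cells, 9, went to 32 at 1 or more counts per gene and to 1 without set N2 of order 2. The Tomato+ number, 0, went to 4 at 1 or more counts and to 3 at 3 or more members. Of the blood-marked multi-mitotic cells, 7, 1 was left without N2 of order 2. The Lepr-high number, 1, went to 25 at 1 or more counts and to 4 at 3 or more members, and to 0 at 20 or more counts, at 8 or more members, after thinning, after low counts of a pool were set to 0 and without N2 of order 2.

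Members called lower in Tomato+ cells over all cells, 8, numbered 3 without the top cell of each gene (Pcna, Rrm2 and Cenpl), 5 without blood-marked cells, 2 without blood-marked and endothelial-marked cells, 2 without multi-mitotic cells, 14 without N2 of order 1, which leaves order 2 alone, and 4 without N2 of order 2. Members called higher, 0, numbered 1 without multi-mitotic cells, 1 without N2 of order 1 and 1 without N2 of order 2. In Lepr-high cells the lower members, 2, numbered 1 without the top cell, 0 without N2 of order 1 and 4 without N2 of order 2. The higher member, 1, was lost (0) with Lepr-high set at 100 or at 1000 CPM, without the top cell, by the mean of per-cell CPM, and without P1 of order 1, N1 of order 2 or P2 of order 2, and 2 were called without N2 of order 1. The cause of these changes was not tested. The mean ratio over the orders kept its sign for the called members in the alternatives run, but ratios of single orders did not: Top2a in order 1 stood at 0.04 without the top cell, and Tyms there at 1.74. The alternatives without multi-mitotic cells, those that left out sets for cell counts, and those for Lepr-high cells other than its threshold, and the levels by order without the top cell were chosen after seeing the data.

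No paired analysis was possible because the numbers in the titles only count cells and the results come from no test. With 1 sample per group, the spread between animals is unknown, and a 0 among 48 Tomato+ cells of order 2 cannot exclude shares of a few percent.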

Other observations

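Genes that restrain the cycle were among the most widely carried cell cycle genes of Lepr-high cells. Btg2 and Btg1, which encode antiproliferative proteins, were carried by 284 (91.6%) and 278 (89.7%) of 310 cells at summed levels of 704 and 395 CPM, against 51.5 and 27.3 CPM in the 8 cells with 11 to 15 mitotic members. This was not particular to Lepr-high cells. Outside the 8, Btg2 and Btg1 were carried by 19 and 20 of 22 endothelial-marked cells and by 31 and 37 of 41 other cells. The 5 blood-marked cells outside the 8 summed to 193 and 115 CPM, below the Lepr-high cells, with 4 carriers of each gene. Trp53, which encodes p53, was carried by 153 cells, its ubiquitin ligase gene Mdm2 by 32.6% of Lepr-high cells, Ccng1 by 76, Ccng2 by 66 and Gadd45a by 63. Cdkn2d, a relative of Cdkn2c, was higher in the 8 cells, at 326 against 21.03 CPM. Cdkn2b was carried by 4 Lepr-high cells, and Cdkn2a had 0 counts in all 386 cells.

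Regulators of the cycle were split. Cdc25c, the phosphatase that activates CDK1, had 99.3% of its counts in the 8 cells, E2f2 84.7% and E2f8 80.1%, with 0, 0 and 1 Lepr-high carriers. Cdk4 and Cdk6, the partners of the D cyclins, were carried by 152 and 128 of 310 Lepr-high cells, Rbl2, an Rb relative of resting cells, by 84 and Cdk2 by 72. Of the 80 further cell cycle genes, 22 passed the filter over all cells, and 3 were called lower in Tomato+ cells (Mad2l1, Rbl1 and Cks1b) and 0 higher, where 4.7% and 3.38% of all tested genes were. Within Lepr-high cells 19 passed, and 1 was called lower (Ccng2), with ratios of -0.63 and -0.70, a share near the 3.82% of all genes tested there.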
